A study of Mus musculus with 12 samples.

Results

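The genes described here mark successive steps of the oligodendrocyte lineage. They are Olig1, Olig2 and Nkx2-2, transcription factors of the progenitor; Pdgfra and Cspg4, surface molecules of the oligodendrocyte precursor; Gpr17, a receptor of the committed precursor; and Myrf, Cnp and Mbp, genes of the differentiating, myelinating cell. The genes were chosen by name as textbook markers of these steps, with earlier results of these data known. They are 9 of the 45706 genes in the count table. All 9 passed the filter on low counts and are among the 17003 genes tested.

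RNA-seq was available for 4 groups of mouse cells with 3 libraries each. All cells derived from C57BL/6 embryonic stem cells that carry GFP in 1 copy of Sox1, a transcription factor of neural stem cells. The libraries labelled Baseline are glial progenitors that the labels call Sox1 negative, taken without sorting (NPC in the study). The libraries labelled Sox1posGP are glial progenitors positive for Sox1, collected by sorting (NPC(+) in the study), in which guide RNAs bring the transcriptional activator dCas9-VP64, a Cas9 that cannot cut, fused to an activation domain, to the Sox1 promoter. The lines that express dCas9-VP64 were each grown from a single cell. The study states of its replicates in general that different days and different clonal lines were used, without naming the RNA-seq libraries. The libraries labelled NSC are unsorted neuroepithelial cells, and those labelled NR are neural rosettes sorted for GFP. Baseline and Sox1posGP cells were grown with bFGF, EGF and laminin. Sorting, guide RNAs and Sox1 induction go together in the Sox1posGP group, so their parts in a difference from Baseline cannot be told apart. In a bulk library, fewer cells that express a gene and less RNA per cell cannot be told apart either.

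Oligodendrocytes arise from neural progenitors in which Olig2, a basic helix-loop-helix factor, and its close relative Olig1 are turned on. The resulting precursors divide in response to platelet-derived growth factor, which they sense through the receptor Pdgfra, and carry the proteoglycan NG2, the product of Cspg4, on their surface. On differentiation they pass through a stage with the receptor Gpr17, switch on Myrf, a factor that activates myelin genes, and make Cnp and Mbp. Olig1 and Olig2 are also known in neural progenitors grown with growth factors, Pdgfra and Cspg4 in mesenchymal cells and pericytes, and Mbp has a second promoter that makes Golli transcripts outside the lineage. The counts are per gene and do not separate these transcripts.

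Totals ranged from 3407066 to 6315574 counts in Sox1posGP and from 4939268 to 18351483 in Baseline, against 29046205 to 43095688 in NSC and 16707006 to 34594885 in NR. A floor of 3 counts in a library was therefore worth 0.613 CPM (counts scaled to TMM library sizes, the unit of levels below) on average in Sox1posGP and 0.0874 CPM in NSC. Sox1, the targeted gene, was measured at 4.83 to 6.00 CPM in Baseline, 20.3 to 21.7 CPM in Sox1posGP and 48.6 to 64.9 CPM in NSC. It rose by 1.97 on the log2 scale in Sox1posGP (SE 0.426, edgeR adjusted p = 0.00221). In NR, sorted on the Sox1 reporter, Sox1 was 1.89 lower on the log2 scale than in the unsorted NSC libraries (fitted value -1.89, edgeR adjusted p = 5.37e-04), and in NR replicate 1, at 4.62 CPM, it was at the level of Baseline. NR below means the libraries labelled NR, and results that rest on them are also given without NR replicate 1. Each NR library also held 1480 to 2850 CPM of 8 summed pluripotency markers, against 57.1 to 165 CPM in NSC, and all 6 NSC and NR libraries held 1900 to 7890 CPM of 12 summed mesenchymal markers, against 55.3 to 83.9 CPM in the Baseline and Sox1posGP libraries. The part of these other cell types in the results below was not tested.

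Promoter sequences are shown for Olig2 and Cnp, the only genes of those searched whose windows held letters bound by many SOX factors. A part of Sox1 in the levels of these genes was not tested. RefSeq promoter windows (build GRCm38.p6) were found for 5 of the 9 genes, Olig2, Pdgfra, Cspg4, Cnp and Nkx2-2, and the 250 bases before each annotated start were searched on both strands for AACAAT and AACAAAG, letters bound by many SOX factors, and for TATAAA. Capitals mark the matches. The Olig2 window lies at chr16:91225300-91225549 on the plus strand and the Cnp window at chr11:100574689-100574938 on the plus strand.
Olig2: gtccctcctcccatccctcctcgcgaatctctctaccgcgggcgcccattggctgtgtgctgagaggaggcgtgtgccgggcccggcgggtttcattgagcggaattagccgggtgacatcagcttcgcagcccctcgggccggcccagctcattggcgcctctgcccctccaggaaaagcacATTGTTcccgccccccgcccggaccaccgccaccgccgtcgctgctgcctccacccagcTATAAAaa
Cnp: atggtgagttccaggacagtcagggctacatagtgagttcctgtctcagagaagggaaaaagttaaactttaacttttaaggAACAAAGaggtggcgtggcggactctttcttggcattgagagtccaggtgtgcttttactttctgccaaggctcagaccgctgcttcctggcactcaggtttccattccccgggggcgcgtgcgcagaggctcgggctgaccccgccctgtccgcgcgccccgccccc
The Olig2 window held AACAAT on the opposite strand, 67 bases before the RefSeq start, and TATAAA 8 bases before it. The start of Olig2 in GENCODE, at 91225457, lies inside this window, and both matches lie after that start. The Cnp window held AACAAAG 168 bases before its RefSeq start. Of all 32851 windows of this length, 9.42% held AACAAT, 5.03% held AACAAAG and 12.37% held TATAAA, so such matches are common. The windows of Pdgfra, Cspg4 and Nkx2-2 held none of the 3. A match describes letters and says nothing of binding.

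The progenitor factors Olig1 and Olig2 were the most abundant of the 9 genes per length of exon in Baseline, at 813 and 270 CPM per kb against 19.6 CPM per kb for Cnp, the next. Both were lower in Sox1posGP. Olig1 was measured at 1743, 1794 and 1735 CPM in Baseline and at 1419, 1399 and 1302 CPM in Sox1posGP. It ranked between 22 and 25 among all genes by CPM in the Baseline libraries and between 30 and 35 in Sox1posGP. The groups did not overlap, as was so for 52.7% of all genes tested, and the level fell by 0.36 on the log2 scale (SE 0.095, edgeR adjusted p = 0.00879). Olig2 was measured at 650, 728 and 673 CPM in Baseline and at 333, 339 and 320 CPM in Sox1posGP. Its mean was 684 ± 39.8 CPM (SD, n = 3) against 331 ± 10.2 CPM, a 2.07-fold lower level (log2 fold change -1.05, SE 0.276, edgeR adjusted p = 0.00811). With all libraries thinned to the smallest total, the Olig1 call was lost (log2 fold change -0.32, edgeR adjusted p = 0.313).

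The 2 genes lie on chromosome 16 (GRCm38, the build mm10), Olig2 at 91225457 to 91228677 and Olig1 at 91269772 to 91271933, both on the plus strand, with 41094 bases between them. Genes of this chromosome were, as a whole, lower in Sox1posGP: the median log2 fold change over its 329 expressed genes was -0.43, against -0.05 over expressed genes of all chromosomes. Within 5 Mb of Olig2, 45 expressed genes had a median of -0.43, and 3 of the 45 were as low as Olig2. Relative to the chromosome median, Olig2 stayed lower by 0.62 on the log2 scale (-0.62), while Olig1 was 0.07 above it. The direction for Olig1 therefore turns with this reference, and 26 of its 45 neighbours were as low as it was. The part of the chromosome in these values was not tested.

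**Figure D1:**
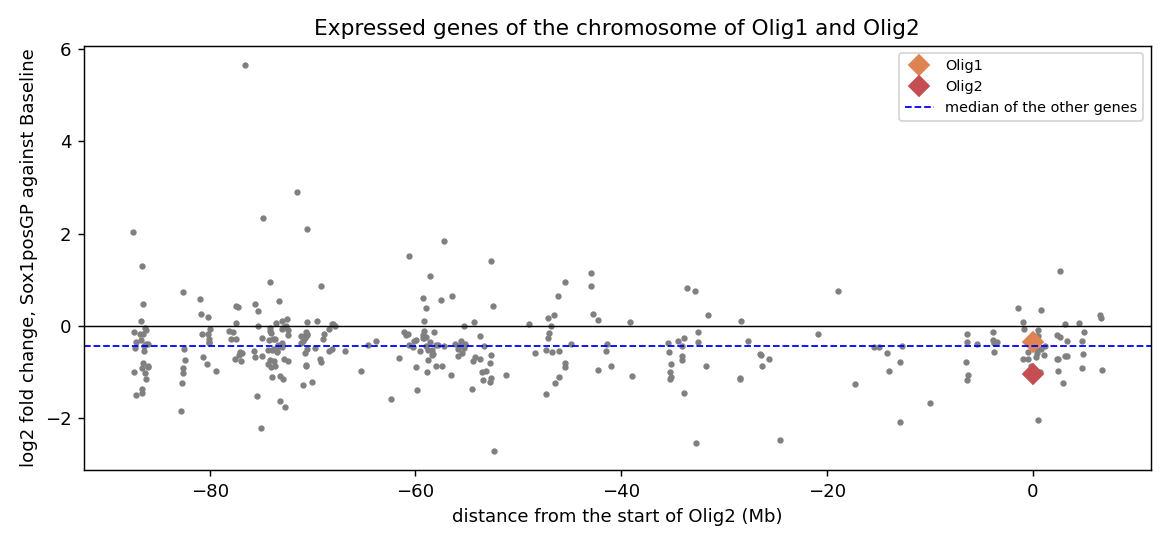
Log2 fold change of Sox1posGP against Baseline (y axis) for each expressed gene of chromosome 16, by distance from the start of Olig2 in Mb (x axis). Grey points are the other genes, whose median is the dashed line at about -0.43, Olig1 lies near that line at -0.36, and Olig2 lies below it at -1.05.

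The count ratio of the pair shows the unequal change within each library. Olig1 counts per Olig2 count were 2.68, 2.47 and 2.58 in Baseline and 4.26, 4.12 and 4.07 in Sox1posGP. The means were 2.57 ± 0.108 and 4.15 ± 0.097 (SD, n = 3), with no overlap (two-sided exact permutation test, p = 0.1, the smallest that 3 against 3 libraries allow). In NSC the ratio turned over, at 0.179, 0.179 and 0.164, so that Olig2 was the more abundant of the pair by counts. In NR it was 0.692, 0.203 and 0.319, and NR replicate 1 with 45 Olig1 and 65 Olig2 counts stood apart. Per length of exon, the NSC levels were 2.28 CPM per kb for Olig1 and 11.2 CPM per kb for Olig2.

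**Figure D2:**
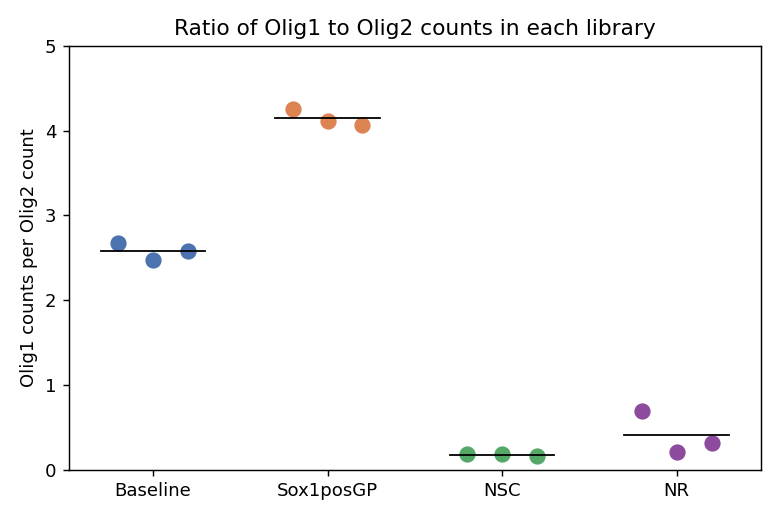
Olig1 counts per Olig2 count (y axis, linear from 0) in each of the 12 libraries, by group (x axis), with a line at the group mean. Sox1posGP lies between 4.07 and 4.26 and Baseline between 2.47 and 2.68, while NSC and NR stay below 1.

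In the NSC and NR libraries the drop from Baseline was far larger. Olig1 was measured at 4.34, 5.84 and 4.63 CPM in NSC and at 2.77, 3.39 and 2.84 CPM in NR. The level fell by 8.48 on the log2 scale from Baseline to NSC (SE 0.134, edgeR adjusted p = 3.53e-14) and by 9.18 to NR (edgeR adjusted p = 2.88e-14). Olig2 was measured at 24.2, 32.6 and 28.2 CPM in NSC and at 4.0, 16.7 and 8.91 CPM in NR, 24.2-fold and 66.9-fold lower than in Baseline (fitted log2 fold changes -4.60 and -6.07). Without NR replicate 1, the NR value for Olig2 was -5.78. NR was lower than NSC by 0.70 for Olig1 (fitted -0.70, edgeR adjusted p = 5.28e-04) and by 1.47 for Olig2 (fitted -1.47, edgeR adjusted p = 0.00113). Without NR replicate 1 both were still called, at -0.66 and -1.15, and after thinning neither was (edgeR adjusted p = 0.178 and 0.115). The median over all genes tested was 0.203 above Baseline in NSC and 0.191 in NR on this scale, small beside these values. The order for both genes was Baseline, Sox1posGP, NSC, NR, each step passing the test.

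Nkx2-2, a homeodomain factor at 147177546 to 147194243 on the minus strand of chromosome 2, ran the other way. It was at 21.2, 35.1 and 18.4 CPM in NSC and 5.97, 14.9 and 9.83 CPM in NR, and had 6, 1 and 1 counts in Baseline and 1, 0 and 2 in Sox1posGP. It was at or near the floor in glial progenitors at this depth, and no difference between Baseline and Sox1posGP could be measured. In NSC it was 6.47 above Baseline on the log2 scale (SE 0.527, edgeR adjusted p = 8.97e-08), and in NR 5.20 (edgeR adjusted p = 1.05e-06). The size depends on the few Baseline counts: without Baseline replicate 1 the values were 7.15 and 5.87, and after thinning 5.71 and 4.51, all called. NR was below NSC (-1.27, edgeR adjusted p = 0.00398), and without NR replicate 1 this was -1.02. After thinning that call was lost (edgeR adjusted p = 0.183). Nkx2-2os, whose exons overlap it by 278 bases on the opposite strand, had at most 3 counts in any library.

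The receptor and surface genes of the precursor, Pdgfra and Cspg4, were low in glial progenitors. Pdgfra, at 75152292 to 75198215 on chromosome 5, was measured at 7.52, 8.37 and 9.18 CPM in Baseline and at 6.37, 4.55 and 3.00 CPM in Sox1posGP. The groups did not overlap, as was so for 52.7% of all genes tested. Their means were 8.36 ± 0.832 and 4.64 ± 1.68 CPM (SD, n = 3), but the difference did not pass the test (log2 fold change -0.88, SE 0.487, edgeR adjusted p = 0.18). In the fit of these 6 libraries alone it did (log2 fold change -0.83, edgeR adjusted p = 0.0031), and likewise with no filter on low counts (edgeR adjusted p = 0.00809). In NSC it was at 12.7, 3.00 and 12.4 CPM and in NR at 14.3, 9.58 and 10.5 CPM, and neither was distinguished from Baseline (log2 fold changes 0.19 and 0.46, edgeR adjusted p = 0.694 and 0.321). NSC replicate 2 decides the NSC value: without it the log2 fold change was 0.60 (edgeR adjusted p = 0.0291). NR was not called against Baseline without NR replicate 2 alone (0.58, edgeR adjusted p = 0.247), and was with NSC replicate 2 left out too, a setting chosen after seeing the data (0.55, edgeR adjusted p = 0.0155). Of 17 alternatives, 3 called NR against Baseline, this one included. Without NR replicate 1 the value was 0.25 (edgeR adjusted p = 0.626). Both NSC and NR were above Sox1posGP (1.07 and 1.35, edgeR adjusted p = 0.0548 and 0.0182), the NSC call being lost without NSC replicate 1 or 3 or Sox1posGP replicate 2 or 3 (edgeR adjusted p = 0.177, 0.168, 0.116 and 0.194). After thinning, the NR call was lost too (edgeR adjusted p = 0.421). The order by mean was NR, NSC, Baseline, Sox1posGP, in which no pair of neighbours was set apart by the test.

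Cspg4, at 56865033 to 56899870 on chromosome 9, had 3, 2 and 1 counts in Baseline and 0, 3 and 1 in Sox1posGP, at or under the floor in every library, and no fold is given. In NSC it was at 9.35, 0.587 and 5.85 CPM and in NR at 5.60, 1.48 and 4.52 CPM. NSC was at least 12.9-fold and NR at least 9.49-fold higher than Baseline set at its floor (edgeR adjusted p = 0.00151 and 0.00355). The NSC bound was 7.89-fold without NSC replicate 1 and 18.6-fold without NSC replicate 2. NR did not differ from NSC by the test (-0.48, edgeR adjusted p = 0.569), and was lower without NSC replicate 2 (-1.02, edgeR adjusted p = 0.049). With NR replicate 2 left out too, a setting chosen after seeing the data, the value was -0.61 (edgeR adjusted p = 0.0381). With the replicate number as a block in the fit it was -0.18 (edgeR adjusted p = 0.716). NSC replicate 2 had the lowest level of both surface genes among NSC libraries, and the lowest sum of mesenchymal markers, 1901 CPM against 3640 and 3580 CPM in the other NSC libraries. Among the NR libraries, replicate 2 was again lowest in both genes and in that sum, with 2237 CPM against 7893 and 5330 CPM. The part of mesenchymal cells in these values was not tested.

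**Figure D3:**
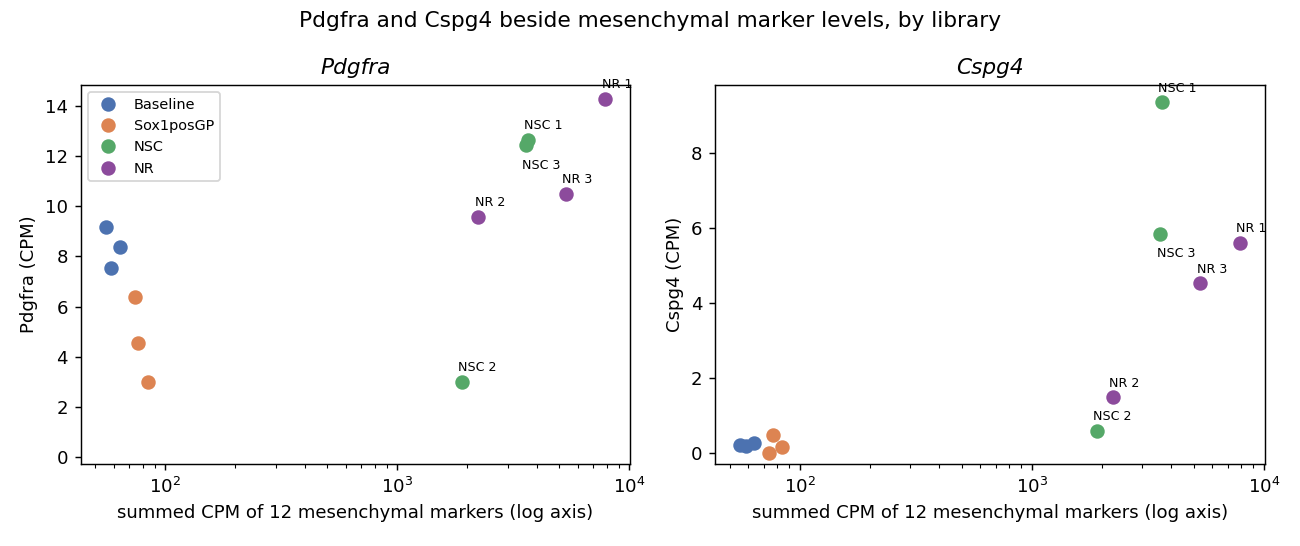
Pdgfra (left) and Cspg4 (right) in CPM on linear y axes, by the summed CPM of 12 mesenchymal markers on a log x axis, 1 point per library, coloured by group. NSC replicate 2 and NR replicate 2, with 1901 and 2237 CPM of the markers, are the lowest of their groups in both panels.

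Of the differentiation genes, Cnp was the only one well above the floor in glial progenitors, and it was lower in Sox1posGP than in Baseline. Cnp encodes a phosphodiesterase of the myelin membrane, at 100574904 to 100591729 on chromosome 11. It was measured at 73.8, 72.1 and 67.8 CPM in Baseline, 42.6, 43.2 and 42.0 CPM in Sox1posGP, 19.3, 20.4 and 19.2 CPM in NSC, and 22.1, 21.4 and 19.9 CPM in NR. The Sox1posGP level was 1.67-fold lower than Baseline (log2 fold change -0.74, SE 0.0891, edgeR adjusted p = 2e-05). These groups did not overlap, as was so for 52.7% of all genes tested, and the call was lost after thinning (-0.60, edgeR adjusted p = 0.177). The median over the 851 expressed genes of chromosome 11 was -0.13. NSC and NR were lower still (-1.86 and -1.76, edgeR adjusted p = 4.3e-10 and 7.33e-10), and did not differ from each other by more than the test could show (0.11, edgeR adjusted p = 0.327). Dnajc7 shares 154 exon bases with Cnp on the opposite strand, and it was lower by 0.355 on the log2 scale in Sox1posGP (fitted -0.355, edgeR adjusted p = 0.00405). Without strand, reads of the shared bases cannot be told apart.

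Mbp, the major structural protein of myelin, was near the floor in glial progenitors and clear in the NSC and NR libraries. It had 7, 1 and 3 counts in Baseline and 1, 0 and 0 in Sox1posGP, while NSC held 25.2, 19.3 and 24.0 CPM and NR 17.5, 17.8 and 19.8 CPM. NSC and NR were above Baseline by 5.88 and 5.57 on the log2 scale (edgeR adjusted p = 1.61e-09 and 2.69e-09), and by 4.97 and 4.12 after thinning, both still called. With 2 of the 3 Baseline libraries at the floor, the size of the difference is uncertain. Sox1posGP passed the test as lower than Baseline (edgeR adjusted p = 0.0686), but these counts are at or near the floor, no fold is given, and the call was lost by DESeq2 (adjusted p = 0.137) and without Baseline replicate 1 or 3 or Sox1posGP replicate 2 or 3 (edgeR adjusted p = 0.205, 0.13, 0.274 and 0.258). NR did not differ from NSC by the test (-0.31, edgeR adjusted p = 0.19), and was lower without NSC replicate 2 (-0.44, edgeR adjusted p = 0.0659). With NR replicate 2 left out too, a setting chosen after seeing the data, the value was -0.39 (edgeR adjusted p = 0.0504). With the replicate number as a block in the fit it was -0.30 (edgeR adjusted p = 0.14).

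Myrf was highest in NR, and was the 1 gene of the 9 called higher in NR than in NSC. It had 7, 4 and 4 counts in Baseline and 3, 4 and 12 in Sox1posGP, and was at 14.6, 13.1 and 13.2 CPM in NSC and 61.1, 32.3 and 48.7 CPM in NR. NSC was 4.67 above Baseline on the log2 scale (SE 0.367, edgeR adjusted p = 6.34e-08), and NR was 6.46 above it (edgeR adjusted p = 1.79e-09). NR was 3.46-fold above NSC (1.79, SE 0.223, edgeR adjusted p = 3.36e-05), with no overlap, as was so for 56.7% of all genes tested, and by 1.57 on the log2 scale without NR replicate 1. From high to low Myrf, the NR libraries ran replicate 1, 3, 2. Their summed mesenchymal markers had the same order (7893, 5330 and 2237 CPM), as had the pluripotency markers (2849, 2152 and 1484 CPM). The part of these other cell types in the Myrf level was not tested. The Sox1posGP value, 1.16 (edgeR adjusted p = 0.134), was not called. It was by DESeq2 (1.19, adjusted p = 0.0865) and without Sox1posGP replicate 2 (1.54, edgeR adjusted p = 0.0673), while without Sox1posGP replicate 3, which held the 12 counts, the value was 0.42 (edgeR adjusted p = 0.699).

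Gpr17 was hardly measured anywhere. It had 1, 2 and 0 counts in Baseline, 0 in every Sox1posGP library, 34, 13 and 27 in NSC, and 0, 27 and 8 in NR. NSC passed the test as higher than Baseline (edgeR adjusted p = 0.0545), at least 1.66-fold over the floor, and lost the call by DESeq2 (adjusted p = 0.102) and without NSC replicate 3 or Baseline replicate 1 or 3 (edgeR adjusted p = 0.1, 0.255 and 0.116). NR was not called (edgeR adjusted p = 0.184), and was called as higher without NR replicate 1 (edgeR adjusted p = 0.0516), which held 0 counts. Without NR replicate 2, which held 27 counts, the value against Baseline dropped from 1.86 to 0.45 (edgeR adjusted p = 0.734), and NR was called lower than NSC (-2.17, edgeR adjusted p = 0.0186). Lims2 overlaps Gpr17 on the opposite strand by 188 exon bases and had 31 to 77 counts in the NSC libraries. Lims2 was itself above Baseline, by 3.86 in NSC (edgeR adjusted p = 1.82e-04) and 3.10 in NR (edgeR adjusted p = 0.00158), and without strand the reads of the shared bases cannot be told apart.

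Of the 9 genes, 0 rose and 4 fell in Sox1posGP against Baseline, where 21.6% and 22.7% of all 17003 genes rose and fell. Against Baseline, 5 rose and 3 fell in NSC, with 44.4% and 33.7% of all genes doing so, and 4 rose and 3 fell in NR, with 45.6% and 34.1%. NR against NSC had 1 higher and 3 lower, with 30.0% and 26.6% of all genes. Where NSC and NR were compared with Sox1posGP, 6 rose and 3 fell in each, beside 41.8% and 31.4% for NSC and 44.4% and 32.0% for NR. The 6 include Gpr17, which had 0 counts in every Sox1posGP library. For it, NSC was at least 1.1-fold over the Sox1posGP floor, and the NR libraries overlapped Sox1posGP (edgeR adjusted p = 0.0766). That NR call was lost without NR replicate 2 (edgeR adjusted p = 0.155). The 3 genes that fell from Baseline in NSC and NR were Olig1, Olig2 and Cnp in both, comparisons that share the Baseline libraries. Without NR replicate 1, the NR values against Baseline were 3.76 for Cspg4, 5.56 for Mbp, -1.83 for Cnp, 6.20 for Myrf and 5.42 for Nkx2-2 on the log2 scale, all called.

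**Figure D4:**
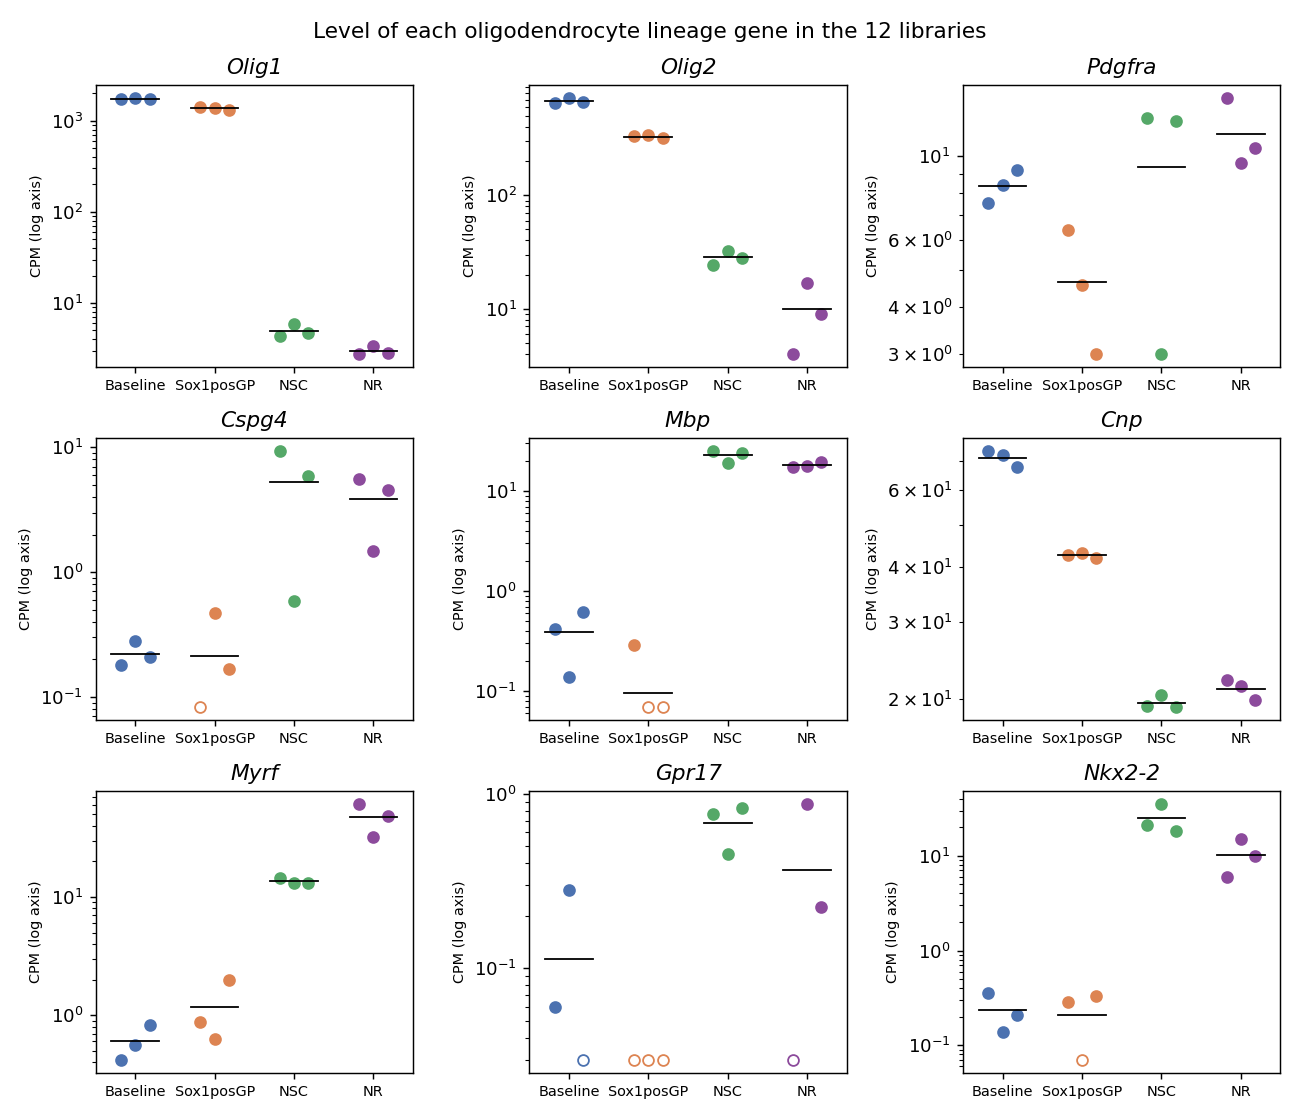
CPM of each of the 9 genes (1 panel each, y axis logarithmic with its own range) in every library by group, with a line at the group mean. Open points are libraries at 0, drawn at the bottom edge. Olig1, Olig2 and Cnp are highest in Baseline, Mbp, Myrf, Nkx2-2 and Cspg4 in NSC or NR, and Pdgfra is low in all 4 groups.

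**Figure D5:**
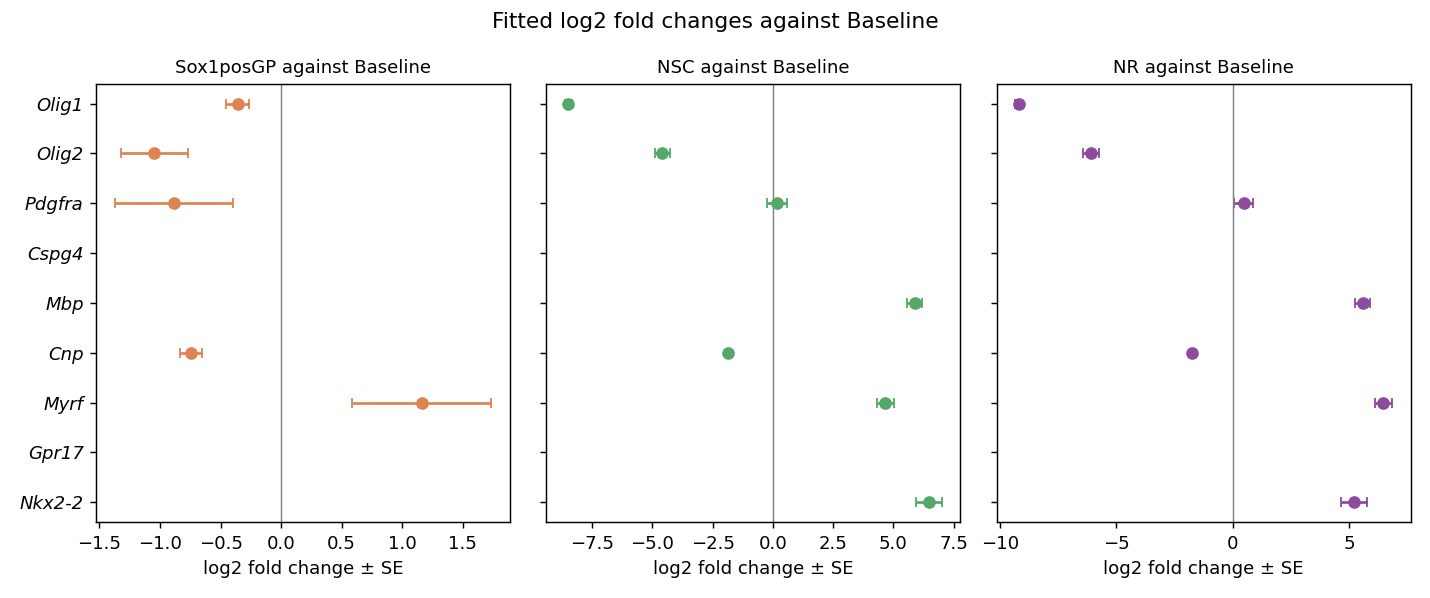
Fitted log2 fold change against Baseline (x axis, with its own range per panel, bars are ± 1 SE) for the genes with more than 3 counts in at least 1 library of both groups, for Sox1posGP, NSC and NR. Olig1, Olig2 and Cnp lie left of 0 in all 3 panels, and Mbp, Myrf and Nkx2-2 lie right of it in NSC and NR.

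The wider lineage was read from 5 lists of related genes: factors and surface genes of the precursor, genes of the committed precursor, myelin genes, the platelet-derived growth factor axis and inhibitors of the lineage. Of their 87 genes outside the 9, 72 were tested, and 17 rose and 15 fell in Sox1posGP against Baseline, near the shares of all genes. The counts by list below leave out the 9 genes as well, and 3 genes stand in more than 1 list. The precursor list had 8 lower and 3 higher of 21 tested, with a median log2 fold change of -0.43 against 0 over all genes. In it, Sox8, a SOX factor of the lineage, was at 346 CPM in Baseline and 142 CPM in Sox1posGP (log2 fold change -1.29, edgeR adjusted p = 1.38e-05), and Ptprz1, a receptor phosphatase, was at 888 and 292 CPM (-1.61, edgeR adjusted p = 5.14e-04). St8sia1, the synthase of the ganglioside GD3, rose from 16.2 to 40.6 CPM (1.31, edgeR adjusted p = 9.19e-05), and Bcan, a proteoglycan, rose from 616 to 794 CPM (0.36, edgeR adjusted p = 0.00933). Sox10, a factor of oligodendrocytes and neural crest cells, had 0 counts in all 6 Baseline and Sox1posGP libraries and 9 to 22 counts in the NSC and NR libraries.

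In the committed precursor list 2 rose and 2 fell of 15 tested. Tns3, an adhesion protein, rose from 17.6 to 53.8 CPM (log2 fold change 1.62, edgeR adjusted p = 3.48e-06), Nfasc, a cell adhesion molecule, rose from 3.06 to 18.1 CPM (2.52, edgeR adjusted p = 1.41e-05), and Fyn, a kinase of process outgrowth, fell from 985 to 537 CPM (-0.88, edgeR adjusted p = 1.91e-04). Cd9, a tetraspanin, was at 334 and 301 CPM and was not called (edgeR adjusted p = 0.479). In the myelin list 5 rose and 1 fell of 18 tested, with a median of 0.02. Its leading genes are not specific to myelin: Cers2, a ceramide synthase, rose from 320 to 794 CPM (1.31, edgeR adjusted p = 3.64e-08), Qdpr, a pteridine reductase, from 60.7 to 139 CPM (1.20, edgeR adjusted p = 3.7e-07), and Gsn, an actin-severing protein also of mesenchymal cells, from 7.73 to 80.9 CPM (3.35, edgeR adjusted p = 0.00163).

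Of 6 genes of the platelet-derived growth factor axis, 2 rose and 0 fell. Pdgfa, the ligand of Pdgfra, rose from 21.6 ± 3.12 to 39.0 ± 2.46 CPM (SD, n = 3; log2 fold change 0.86, edgeR adjusted p = 0.0269), and Pdgfd, a ligand of the related receptor, rose from 6.36 to 19.7 CPM (1.61, edgeR adjusted p = 0.0218). Pdgfc was at 21.1 and 16.7 CPM and was not called (edgeR adjusted p = 0.172). In the inhibitor list 5 rose and 4 fell of 15 tested. Id3, which binds and holds back basic helix-loop-helix factors, rose 5.89-fold from 43.3 to 256 CPM (edgeR adjusted p = 2.73e-08), and Id2 rose from 164 to 257 CPM (0.65, edgeR adjusted p = 0.00663). Bmp2, a ligand that turns precursors towards astrocytes, rose from 0.471 to 2.57 CPM (2.63, edgeR adjusted p = 3e-04). It had only 2 to 5 counts in the Baseline libraries, near the floor, so the size is uncertain. Lingo1, a surface inhibitor of differentiation, fell from 33.8 to 15.0 CPM (-1.15, edgeR adjusted p = 1.09e-04).

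Markers of other cell types moved as well between Sox1posGP and Baseline. Of 11 astrocyte markers tested 2 rose and 4 fell, and their sum was 3680 to 3930 CPM in Baseline and 1790 to 1870 CPM in Sox1posGP, while Gjb6 was at 0 in both groups. Most of that sum was Slc1a3, at 2605 and 1182 CPM, and Aldoc, at 640 and 347 CPM, and the median log2 fold change of the list was 0.04. Of 12 neuron markers 2 rose and 1 fell, and of 8 neural progenitor markers 2 rose and 3 fell. Of 12 mesenchymal markers 1 rose and 0 fell, of 6 extraembryonic endoderm markers 2 rose and 0 fell, of 8 neural crest and Schwann markers 0 rose and 1 fell, and of 8 pluripotency markers 0 rose and 1 fell. Their part in the results was not tested.

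In the 5 lists, NSC had 40 higher and 24 lower than Baseline of the 72, beside 44.4% and 33.7% of all genes. NR had 38 higher and 26 lower than Baseline, beside 45.6% and 34.1%. NR against NSC had 19 higher and 34 lower, beside 30.0% and 26.6% of all genes, and in the precursor list 0 higher and 16 lower of 21. Lists outside the lineage moved the same way, with 0 higher and 8 lower of 8 neural progenitor markers and 0 higher and 10 lower of 12 neuron markers. NR replicate 1 had the lowest sum of the precursor list among the NR libraries, 257 CPM against 574 and 415 CPM. Its sum of the progenitor markers was also the lowest, 851 CPM against 1466 and 1318 CPM. The genes most like Olig1 over the 12 libraries, by Pearson r of log2 CPM, were Gng12 (0.9991), Flot1 (0.9988) and Rit1 (0.9984). For Olig2 they were Nt5m (0.9971), Vgll4 (0.9953) and B3gat1 (0.9939). For Pdgfra the highest were lower, Plcl1 at 0.8922, Nrk at 0.8579 and Bnip3 at 0.8356. The libraries of these correlations fall into 2 separate blocks, the glial progenitors and the libraries labelled NSC and NR, and no p is given.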

How the data were processed

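Counts of reads per Ensembl gene were deposited by the authors for all 12 libraries, 45706 genes each. RNA was isolated with PicoPure, cDNA made with SMART-Seq v4 and libraries with MicroPlex. The submitters' processing notes name STAR 2.6, RSEM 1.1.14 and mm10. Their roles, the annotation and the strand setting are not given in the sources used here, and the whole-number counts may be rounded RSEM estimates. SMART-Seq v4 does not mark strand. Gene positions came from GENCODE vM21 (GRCm38), promoter sequences from RefSeq (GRCm38.p6).

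From the deposited counts, edgeR 4.0.16 (R 4.3.3, limma 3.58.1) was fitted to all 12 libraries and 4 groups with TMM scaling, filterByExpr and the quasi-likelihood test, Benjamini-Hochberg adjusted over 17003 genes and called at an adjusted p below 0.1, the false discovery rate of the study. CPM are on TMM library sizes, log2 CPM used a prior count of 2 and fold changes one of 0.125. SE is the log2 fold change divided by the root of F. Intervals of the tests cover the spread between the libraries of a group, and the floor of 3 counts covers counting error only. Whether that spread includes different clonal lines is not stated for these libraries. The 4 groups share a single estimate of the spread, though for Olig2 the SD was 3.07% of the mean in Sox1posGP and 64.9% in NR. DESeq2 1.42.0 was an alternative. Other alternatives were size factors, upper-quartile scaling, filters, thresholds, thinning, the prior count, the 2 groups alone, a replicate block and leaving out libraries. The fit was tested on simulated data for Sox1posGP against Baseline with 17003 genes, and called 100% of the 200 genes changed by 3 on the log2 scale, with 15 false calls. The changed genes were drawn from those well above the floor, and every group was given the same spread. The simulation therefore does not show how often smaller changes, or changes of genes near the floor, are called.

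The members and the lists were chosen with earlier results of these data known. The genes named from each list are the up to 3 called with the smallest adjusted p between Sox1posGP and Baseline and the 2 with the highest mean CPM. Lists of astrocyte, neuron, progenitor, mesenchymal, extraembryonic endoderm, neural crest and pluripotency markers were also read. Same-numbered libraries deviated together in NR and NSC (correlations 0.229, 0.490 and 0.296 for replicates 1, 2 and 3), so that their numbers pair these 2 groups. In the other comparisons the correlations were between -0.0472 and 0.0619, and the numbers do not pair the libraries.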

Additional observations from a re-analysis of the deposited data

How the results depend on the processing

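Of 861 values of member log2 fold changes recomputed under alternatives, 805 kept direction and call, 25 lost the call, 19 gained it and 12 changed sign. Genes higher in Sox1posGP than Baseline went from 0 to 1 by DESeq2, with no filter on low counts and with the replicate block (Myrf, edgeR adjusted p = 0.088), and ranged from 0 to 1 over leaving out single libraries. Genes lower went from 4 to 2 after thinning and to 1 at a fold over 4, which was Mbp, a gene at or near the floor in both groups. Of the 72 listed genes, calls went from 32 to 21 after thinning and to 6 at a fold over 4. For NR against NSC, 1 higher went to 0 at a fold over 4, and 3 lower went to 0 after thinning and at a fold over 4, to 5 without NSC replicate 2 and NR replicate 2 (chosen after seeing the data), and ranged from 3 to 5 over leaving out single libraries, with 5 without NSC replicate 2. Listed genes called between NR and NSC went from 53 to 24 after thinning and to 6 at a fold over 4. At a fold over 4 they went from 64 to 42 for NSC against Baseline, from 60 to 38 for NSC against Sox1posGP and from 62 to 40 for NR against Sox1posGP. The fold over 4 keeps only larger changes, and thinning leaves fewer counts. The causes of the other moves were not tested.

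Signs changed for these, with the range over leaving out single libraries where it spans 0: Olig1, Sox1posGP against Baseline, relative to the chromosome median (0.071); for Nkx2-2, Sox1posGP against Baseline, without Baseline replicate 1 (0.20) or Sox1posGP replicate 2 (0.20), range -1.37 to 0.20; for Pdgfra, NSC against Baseline, after thinning (-0.57) and without NSC replicate 1 (-0.10) or 3 (-0.06), range -0.10 to 0.60; for Pdgfra, NR against NSC, without NSC replicate 2 (-0.16) or with NR replicate 2 also left out (-0.03), range -0.16 to 0.54; for Pdgfra, NSC against Sox1posGP, after thinning (-0.073); for Cspg4, NR against NSC, after thinning (0.18) and without NSC replicate 1 (0.22), range -1.02 to 0.22; and for Cnp, NR against NSC, after thinning (-0.34). None of the values with a changed sign passed a test, and the one relative to the chromosome had none. The replicate block changed no other member's call. Counts near the floor limit Cspg4, Mbp, Gpr17 and Nkx2-2 in the glial progenitors.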
